A study of Mus musculus with 4 samples.

Results

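The genes described here encode subunits of Polycomb repressive complex 1 (PRC1), measured in 4 cultures of mouse embryonic stem (ES) cells. They are the 9 genes Phc1, Phc2, Phc3, Cbx2, Cbx7, Cbx8, Ring1, Rnf2 and Bmi1, of 18194 genes with a symbol of their own on the array. Every probe set carrying one of those symbols was taken, 20 of 45101 in all. The genes were chosen by their role in the complex, and the group was picked because Phc1 and Cbx7 were lower in homozygous than in wild type cells in these data. The homozygous against wild type values of the group are therefore a description. Counts of calls in that contrast are printed beside the share over all genes, and nothing is read from them.

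The 2 homozygous lines, ko1 and ko2, carry a knock-out of BAF250, a subunit of the SWI/SNF chromatin remodelling complex, on both alleles. The heterozygous line carries the knock-out on 1 allele and the wild type line has none. Each line was measured on 1 Affymetrix array. All were grown on gelatin without feeder cells, in serum with the cytokine the labels call leukocyte inhibitory factor. The sources used here state neither the strain nor how the lines were derived. Nothing in the labels says whether ko1 and ko2 are separate clones, so the p-values rest on a spread between arrays that may be technical. In the fits the single heterozygous and wild type cultures are assumed to vary like the homozygous pair. BAF250 is a name of Arid1a and Arid1b, and the labels give no letter. Arid1a read 7.03 and 3.57 in ko1 and ko2, against 50.4 in heterozygous and 109 in wild type cells on its brighter probe set. On the other Arid1a probe set the signals were 17.3 and 1.06 in the homozygous lines, 24.1 in heterozygous and 42.9 in wild type cells. Which exons were altered is unknown here, and these values check the labels only if the probe sets lie in the altered part. Arid1b was at or below background on all 4 arrays.

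PRC1 is a chromatin complex that adds ubiquitin to histone H2A and compacts chromatin at silent developmental genes. Its catalytic core is a RING1 or RNF2 protein paired with 1 of the Pcgf proteins, of which BMI1 is one. In canonical PRC1 a CBX protein reads the methyl mark that Polycomb repressive complex 2 (PRC2) puts on histone H3, and a PHC protein links complexes to each other through its SAM domain. In variant PRC1 the proteins RYBP or YAF2 take the place of CBX and PHC. CBX7 is known as the main CBX protein of canonical PRC1 in mouse ES cells, while CBX2 and CBX8 are known to gain weight as these cells differentiate.

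The windows of 300 bases around the annotated start sites of Phc1 and Cbx7 are shown because these members had the largest signals of the group in wild type cells and led to its choice. They are RefSeq sequences of build GRCm38.p6, 5′ to 3′ in the direction of the gene, from 250 bases before to 50 bases after the start, and capitals mark matches to a searched motif.
Phc1, chr6:122340178-122340477, minus strand: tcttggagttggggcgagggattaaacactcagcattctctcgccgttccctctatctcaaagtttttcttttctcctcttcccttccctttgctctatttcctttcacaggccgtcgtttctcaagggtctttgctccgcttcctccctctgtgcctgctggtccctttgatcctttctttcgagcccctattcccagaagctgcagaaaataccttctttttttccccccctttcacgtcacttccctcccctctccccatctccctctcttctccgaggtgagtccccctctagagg
Cbx7, chr15:79932597-79932896, minus strand: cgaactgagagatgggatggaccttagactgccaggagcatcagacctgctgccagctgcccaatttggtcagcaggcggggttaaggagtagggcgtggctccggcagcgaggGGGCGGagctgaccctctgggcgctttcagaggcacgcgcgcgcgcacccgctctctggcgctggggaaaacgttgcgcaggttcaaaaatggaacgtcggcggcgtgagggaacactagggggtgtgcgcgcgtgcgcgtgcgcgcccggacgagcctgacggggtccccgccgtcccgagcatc
The motifs searched on both strands were the POU octamer ATGCAAAT, the SOX core CATTGT, the ESRRB site TNAAGGTCA, the GC box GGGCGG and the E-box CACGTG. They occur in 1.74%, 12.6%, 1.28%, 35.7% and 7.15% of the 32851 promoter windows in the table. None of the 5 motifs matched in the Phc1 window, and the Cbx7 window held 1 GC box, 136 bases before the start. With a single match, no motif overlaps another. The windows differ in composition: the Phc1 window has 9 CpG dinucleotides and a GC content of 52%, and the Cbx7 window has 33 and 67.3%, where the median window of the table has 7 CpG. More CpG than in the Phc1 window is found in the windows of Rnf2 (30), Ring1 (37), Cbx8 (24), Bmi1 (23) and Phc3 (15), while the 3 windows of Phc2 have 19, 2 and 45. The table held windows of 8 of the 9 members. In that annotation Phc1 spans chr6:122317731-122340227, with the window at its start, whereas Cbx7 spans chr15:79915804-79971143, so its window lies inside the gene, at the start the table gives. Cbx2 and Cbx8 both lie on chromosome 11, at 119023019-119031275 and 119036303-119040913, and the other members lie on chromosomes 1 (Rnf2), 2 (Bmi1), 3 (Phc3), 4 (Phc2) and 17 (Ring1).

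Most PRC1 probe sets were dim. Background on an array was taken as the brightest of 27 probe sets for bacterial control transcripts with low signals: 5.55 for ko1 and 3.82 for ko2, 6.92 for heterozygous and 7.57 for wild type. Of the 20 probe sets, 3 were above background on all 4 arrays, 1 each for Phc1, Cbx2 and Rnf2, and 5 were at or below it on all of them. By a filter on the mean signal over the 4 arrays (above 2.55), 12 probe sets of 7 genes were kept. Phc3 and Bmi1 had none. The arrays also differed in level, with median signals of 2.70 (ko1), 2.61 (ko2), 2.74 (heterozygous) and 4.01 (wild type). Signals were therefore scaled to a common median over the 13730 genes tested, and every log2 difference below has that of the median gene subtracted. The median gene stood at -0.18 between homozygous and wild type, at -0.08 between homozygous and heterozygous, and at -0.07 between heterozygous and wild type (-0.75, -0.03 and -0.68 without scaling). The ratio of 3′ to 5′ actin control signals, a sign of RNA quality, was 5.01 for ko1, 2.61 for ko2, 2.86 for the heterozygous and 1.3 for the wild type array.

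**Figure D1:**
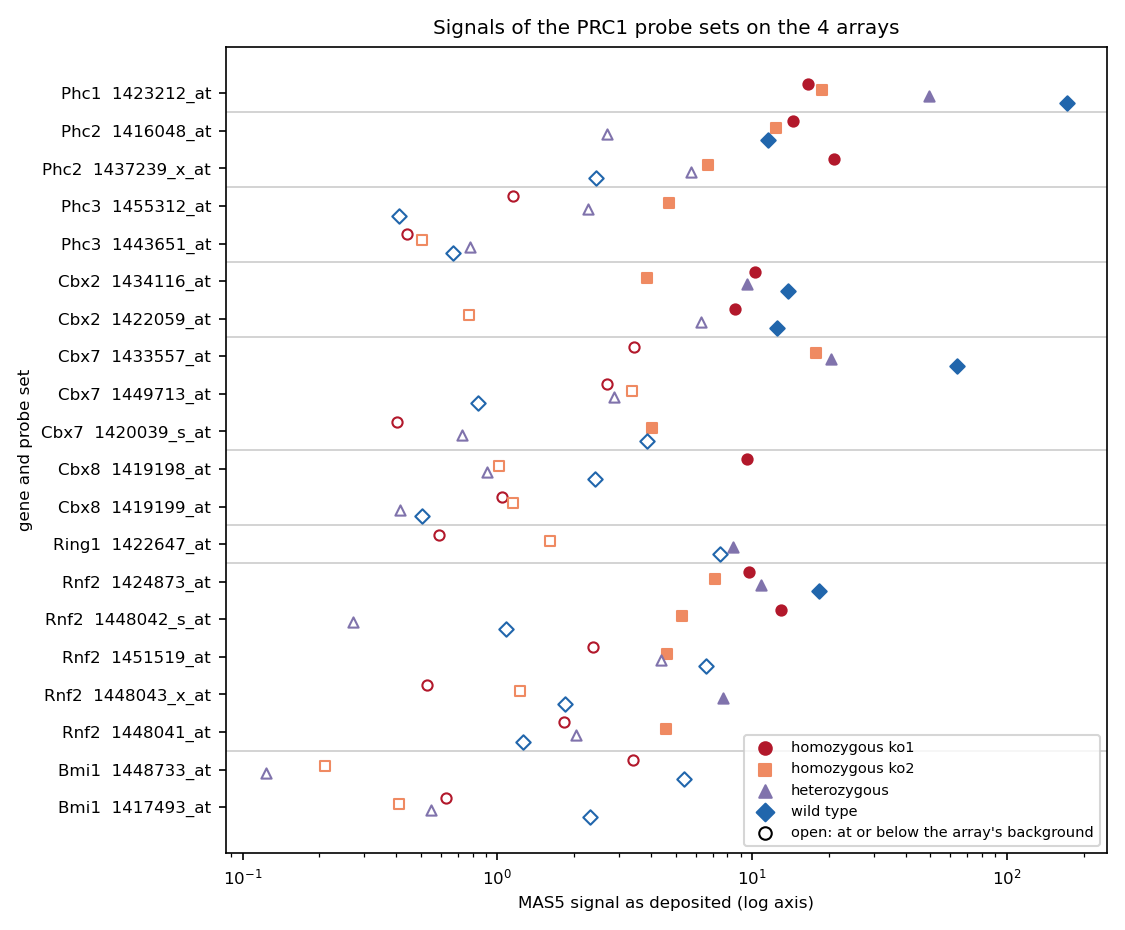
Signals of the 20 PRC1 probe sets on the 4 arrays as deposited, on a log axis, with open symbols at or below the background of the array. Phc1 is above background everywhere and spans 16.5 to 172, and the Bmi1 symbols are all open.

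The PHC genes encode the subunits that join PRC1 complexes. Phc1 read 16.5 in ko1 and 18.7 in ko2, against 49.3 in heterozygous and 172 in wild type cells, above background on every array. The homozygous lines lay close together, below heterozygous, and wild type was the highest. Relative to the median gene the difference was -2.45 ± 0.45 (SE, homozygous n = 2, wild type n = 1) for homozygous minus wild type, a level 5.47-fold lower. The single lines stood at -2.71 in ko1 and -2.36 in ko2, and heterozygous at -1.06, each minus wild type. In such bulk cultures fewer cells that express a gene and less of its RNA per cell cannot be told apart.

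Phc2, which encodes another PHC subunit, did not share the low homozygous levels. Its brighter probe set read 14.4 and 12.4 in ko1 and ko2, 2.68 in heterozygous, below background there, and 11.5 in wild type cells. Both homozygous lines were above wild type and heterozygous, with a log2 difference of 0.97 ± 0.71 from wild type. Its other probe set, of a type named for possible cross-hybridisation (suffix x), gave 20.9 and 6.69 in ko1 and ko2, against 5.73 in heterozygous and 2.44 in wild type, both below background. Homozygous cells were at least 2.72-fold higher than wild type on it, a bound that sets a dim array at its background. Phc3, the remaining PHC gene, read between 0.412 and 4.70 on one probe set, above background in ko2 alone, and between 0.443 and 0.779 on the other, below background on all 4 arrays.

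CBX subunits recognise methylated histone H3. Cbx7 read 3.42 in ko1, below background, and 17.8 in ko2, against 20.5 in heterozygous and 63.5 in wild type cells on its brightest probe set. Wild type was the highest, ko2 lay close to heterozygous, and ko1 was far below both. The log2 difference from wild type was -2.10 ± 0.83 for the homozygous group, with -3.36 in ko1, -1.01 in ko2 and -0.88 in heterozygous. The ko1 value rests on a signal below background, so 1 of the 2 homozygous lines gave a measured level. Without ko1 the homozygous difference was -1.01, close to that of the heterozygous line. The other Cbx7 probe sets do not measure the gene well. One read 2.68 and 3.36 in ko1 and ko2, 2.87 in heterozygous and 0.837 in wild type, all below background. The other was above background in ko2 only, at 4.03, while wild type read 3.85 under a higher background. With the probe sets of Cbx7 averaged the difference was -0.29.

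Cbx2 and Cbx8, the CBX genes associated with differentiation, showed no common direction in the homozygous lines. Cbx2 read 10.3 and 3.87 in ko1 and ko2, against 9.57 in heterozygous and 13.9 in wild type cells, above background everywhere. Before scaling the ko1 value lay between those of heterozygous and wild type and the ko2 value below both, and after scaling ko1 stood level with heterozygous. Relative to the median gene the difference from wild type was -0.29 ± 0.78. The second Cbx2 probe set split the lines further, at 8.59 in ko1 and 0.771 in ko2, below background, against 6.32 in heterozygous, below background too, and 12.5 in wild type. Cbx8 was above background in ko1 alone, at 9.56, and dim in ko2 (1.01), in heterozygous (0.911) and wild type cells (2.42). Its difference of 1.06 ± 1.504 from wild type rests on that one array, and without ko1 it was -0.27. The other Cbx8 probe set was below background on all arrays.

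The catalytic RING genes are Rnf2 (RING1B) and Ring1 (RING1A). Rnf2 read 9.70 and 7.16 in ko1 and ko2, against 10.9 in heterozygous and 18.3 in wild type cells on its brightest probe set. After scaling these values lay close together, with a log2 difference from wild type of -0.31 ± 0.64 in homozygous cells and of -0.01 in heterozygous cells. With its probe sets averaged the homozygous difference was 0.69, of the opposite sign. Rnf2 had 5 probe sets, and they disagreed. One gave 13.0 and 5.28 in ko1 and ko2 against 0.27 in heterozygous and 1.08 in wild type, both below background. The homozygous mean there was at least 1.90-fold higher than wild type and at least 1.22-fold higher than heterozygous. Another read 7.67 in heterozygous and was below background on the other arrays. The last pair was above background in ko2 alone, at 4.61 on each, where the background was lowest. Wild type read 6.61 and 1.26 on this pair and heterozygous 4.37 and 2.04. The first was thus brighter in wild type than in ko2 before scaling, but not after it (4.75 in wild type, 5.29 in ko2). The platform table gives no accession for 3 of these 5, those other than the brightest and one of that last pair.

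Ring1 had a single probe set, which read 0.591 and 1.61 in ko1 and ko2, against 8.37 in heterozygous and 7.46 in wild type cells. Only the heterozygous value was above background; wild type lay just under its own. Homozygous cells were at least 1.78-fold lower than heterozygous, and no fold can be given against wild type. Bmi1, the Pcgf subunit of the group, was below background on all 4 arrays with both probe sets. Its signals were 3.41 and 0.21 in the homozygous lines, 0.123 in heterozygous and 5.40 in wild type on the brighter one. On the other they were 0.626 and 0.410 in the homozygous lines, 0.548 in heterozygous and 2.32 in wild type.

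**Figure D2:**
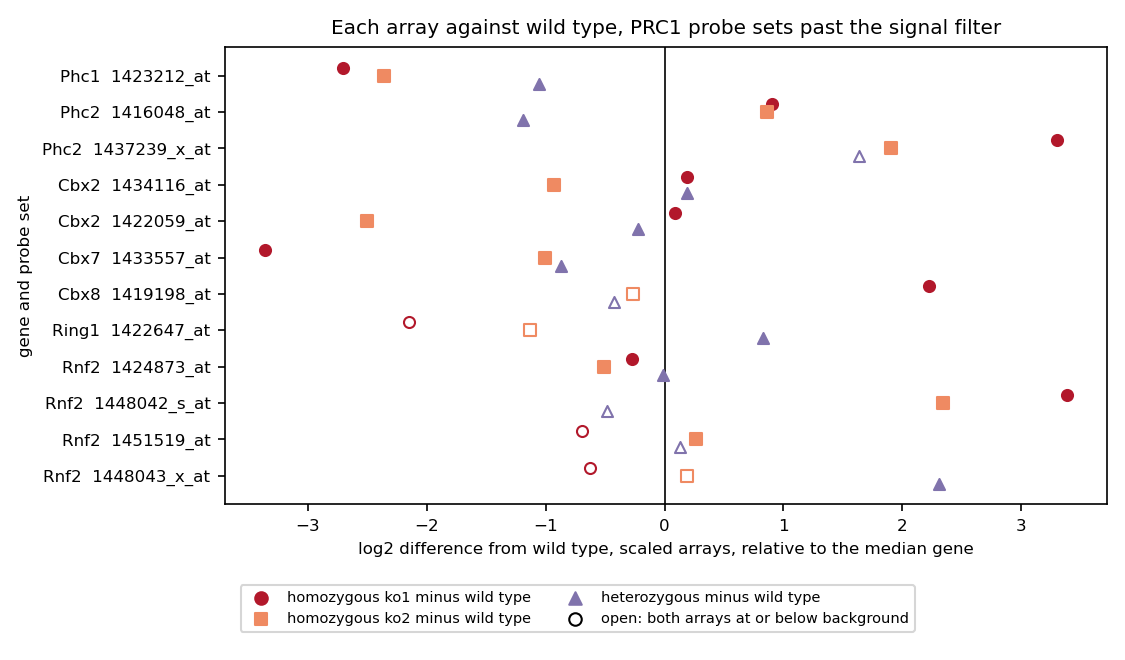
Log2 differences of ko1, ko2 and heterozygous from wild type, relative to the median gene, for the 12 PRC1 probe sets past the signal filter; open symbols mark pairs of arrays that are both at or below background. Phc1 has both homozygous lines at -2.71 and -2.36, while Cbx7 has ko1 at -3.36 and ko2 at -1.01.

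Counted over the group, 4 of the 7 genes past the filter (Phc1, Cbx7, Ring1 and Rnf2) had both homozygous lines below both other arrays after scaling, 1 (Phc2) had both above, and Cbx2 and Cbx8 overlapped. Of the 4, Ring1 was below background in both homozygous lines and in wild type, so its order against wild type was not measured, and a second Rnf2 probe set had both homozygous lines above. Over all tested genes 21.5% had both homozygous lines below and 18.1% both above. The median difference of the 7 was -0.31, where the median over all genes is 0 by construction. In homozygous against wild type, the contrast that led to the group, limma called 0 of the 7 at an adjusted p below 0.05. Over all tested genes 0.197% were called. An unadjusted limma p below 0.05 was found for 2 of the 7 and for 5.96% of all genes. As deposited the count of calls was 2, both lower (Phc1 and Cbx7). Over all genes 1.02% were called there and 0.619% called lower. Among single probe sets in the scaled fit the count was 1 (Phc1), where 0.444% were called. These counts come from the values that chose the group and support nothing about it. Relative to the median gene, Phc1 and Cbx7 stood at -2.50 ± 0.54 and -2.14 ± 0.68 as deposited. The calls as deposited were made before the median gene, at -0.75 there, was subtracted.

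The heterozygous array took no part in the choice of the group, but its comparisons share the homozygous or the wild type arrays with it. Against heterozygous, limma called 0 of the 7 genes in homozygous cells, where 0.211% of all genes were called. An unadjusted p below 0.05 was found for 2 (Phc1 and Phc2), and for 6.47% of all genes. The difference for Phc1 was -1.43 ± 0.45 (adjusted p = 0.51) and that for Cbx7 -1.26 ± 0.83 (adjusted p = 0.813). For Phc2 it was 2.13 ± 0.71 (adjusted p = 0.609), with heterozygous below background, so homozygous cells were at least 1.97-fold higher. Heterozygous against wild type, 1 array each, gave 0 calls by limma among the 7 genes and 0% among all genes, of which 368 had an unadjusted p below 0.05 (0 of the 7). Phc1 stood at -1.06 ± 0.52 there (adjusted p = 1). With both homozygous lines set against wild type and heterozygous together, Phc1 stood at -1.99 ± 0.39. This comparison holds the arrays that chose the group, so its values for the members are a description too. Its count of calls was 1 of 7 genes (Phc1), where 1.26% of all genes were called and 0.335% called lower, and 1 member probe set, where 0.792% were. The gene count was 0 with probe sets averaged and without the intensity trend, while Phc1 stood at -2.02 and -1.99 there. Leaving out a homozygous array leaves 1 in that group, so only values are given here. Without ko1 Phc1 stood at -1.88 and Cbx7 at -0.62, and without ko2 they stood at -2.22 and -2.96. The Cbx7 value without ko2 rests on its ko1 signal of 3.42, which is below background. The order of Phc1, with both homozygous lines lowest, heterozygous next and wild type highest, was found in 16.4% of the 3594 tested genes above background on all 4 arrays.

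Markers of cell state also differed between the arrays. The 11 ES cell markers were above background on all 4 arrays, with a summed signal after scaling of 136 and 199 for ko1 and ko2, 566 for heterozygous and 841 for wild type. In the limma fit against wild type and heterozygous together 8 of the 11 fell (6 as deposited), where 0.335% of all genes were called lower (0.211% as deposited). Against wild type alone 0 of 11 were called, while 11 had an unadjusted p below 0.05, where 5.96% of all genes did. Against heterozygous alone 0 were called and 9 had an unadjusted p below 0.05, where 6.47% of all genes did. The 12 endoderm markers were all above background in the homozygous lines and summed to 7437 and 4444, against 128 in heterozygous (4 of 12 above background) and 108 in wild type (5 of 12). Of these 12, 11 rose against both other arrays together (8 as deposited), where 0.925% of all genes were called higher (0.444% as deposited). Against wild type alone 5 were called higher, where 26 of all 13730 tested genes were. Against heterozygous alone 6 were called higher, where 28 of all tested genes were. Fibroblast markers summed to 39.7 and 67.2 in the homozygous lines, with 3 and 5 of 9 above background, against 28.1 in heterozygous (0 of 9) and 27.6 in wild type (2 of 9). The 7 trophoblast markers on the array summed to 37.3 and 38.6 in the homozygous lines, against 28.8 in heterozygous and 25.0 in wild type, and Ascl2, Eomes and Tpbpa among them were at background on all arrays. The part of these markers, of the array level and of the actin ratio in the PRC1 values was not tested.

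By the distance between their 3 differences from wild type, the genes nearest to Phc1 among the 13729 others were Myl7, Mgat1, Cds1 and Brs3, at 0.14, 0.14, 0.14 and 0.15 log2 units. Those nearest to Cbx7 were Ifrd2, Snord104, Hsd17b14 and BC005537, at 0.14, 0.16, 0.19 and 0.25. Phc1 and Cbx7 were 0.87 apart, and 435 genes lay closer to Phc1 than Cbx7 did. Most of these values are dim: Myl7, Cds1 and Brs3 were above background on 1 array, Mgat1 on 2 and the 4 genes nearest to Cbx7 on 3, and Cbx7 itself was below it in ko1. The distances are a description of 4 arrays that rests in part on signals below background.

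Other subunits of canonical PRC1 were read from a list of 5 genes, of which 4 were on the array and past the filter. None was called by limma in any comparison of the 3 genotypes or of homozygous with the other arrays together (0 at an unadjusted p below 0.05). The median difference between homozygous and wild type was -0.23. Pcgf2 (MEL18), the close relative of Bmi1, showed 10.6 and 10.2 in ko1 and ko2, against 7.52 in heterozygous and 10.5 in wild type cells, above background on all arrays, with a difference from wild type of 0.75 ± 0.67. Cbx6 showed 18.5 (ko1) and 9.44 (ko2), against 8.78 in heterozygous and 7.44, below background, in wild type cells. A second Cbx6 probe set stood at -0.34, opposite to the first at 1.52 ± 0.69. Of the SAM domain genes, Scml2 was below background on all 4 arrays and Scmh1 on all but wild type.

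Of variant PRC1, 15 genes were past the filter of 16 on the array. Against wild type the list had 0 calls by limma and a median of 0.33. An unadjusted p below 0.05 was found for 1 gene of the list and for 5.96% of all genes. Pcgf5, which pairs with the RING proteins in a variant complex, went opposite to Phc1. It read 55.5 in ko1 and 41.3 in ko2, against 8.20 in heterozygous and 17.0 in wild type cells, above background on all arrays. Both homozygous lines were above the other arrays by more than they differed from each other. Against wild type the difference was 2.24 ± 0.49 (adjusted p = 0.26), and against heterozygous 2.49 ± 0.49 (adjusted p = 0.137). In the comparison with wild type and heterozygous together Pcgf5 rose 4.96-fold (2.31 ± 0.40, limma adjusted p = 0.00213), 1 of 15 genes of the list called, where 1.26% of all tested genes were. The call ended in the signals as deposited (2.29, adjusted p = 0.127), without ko1 (2.13, adjusted p = 0.136), without the intensity trend (2.31, adjusted p = 0.36) and when its probe sets were averaged (1.55, adjusted p = 0.51). The other 2 Pcgf5 probe sets were dim. They read 5.51 and 3.64 in ko1, 0.381 and 4.31 in ko2, 0.393 and 0.203 in heterozygous and 4.82 and 1.71 in wild type.

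The remaining variant subunits gave smaller or less certain differences. Bcorl1 and E2f6 had the next largest differences from wild type (2.13 ± 0.89 and 1.94 ± 0.94). Both were below background in wild type, and homozygous cells were at least 1.79-fold and at least 1.34-fold higher than wild type. Against heterozygous, Bcorl1 stood at 0.29 ± 0.89 and E2f6 at -0.52 ± 0.94. E2f6 was brightest in heterozygous (8.85, against 6.06 in ko1 and 5.62 in ko2). Its second probe set was above background in heterozygous alone (7.84). Skp1, Wdr5, Usp7 and L3mbtl2, all above background on every array, stood at -0.15 ± 0.45, -0.47 ± 0.51, -0.63 ± 0.46 and -0.46 ± 0.50 against wild type. Their other probe sets past the filter stood between -0.89 and 1.59 for Usp7, at -1.80 for Wdr5 and at 0.46 for Skp1. Kdm2b, which brings a variant complex to unmethylated CpG islands, stood at -0.38 ± 0.63, and its second probe set at 0.23. The enzymes that remove ubiquitin from H2A and their partners (5 genes past the filter) had 0 calls by limma in the same comparisons (0 at an unadjusted p below 0.05). Bap1 among them stood at -0.86 ± 0.55 against wild type, with signals of 13.5 and 9.79 in the homozygous lines, 15.4 in heterozygous and 37.5 in wild type, while Usp16 (1.22 ± 1.35) and Mysm1 (-0.82 ± 1.31) were above background on 1 array and on none.

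**Figure D3:**
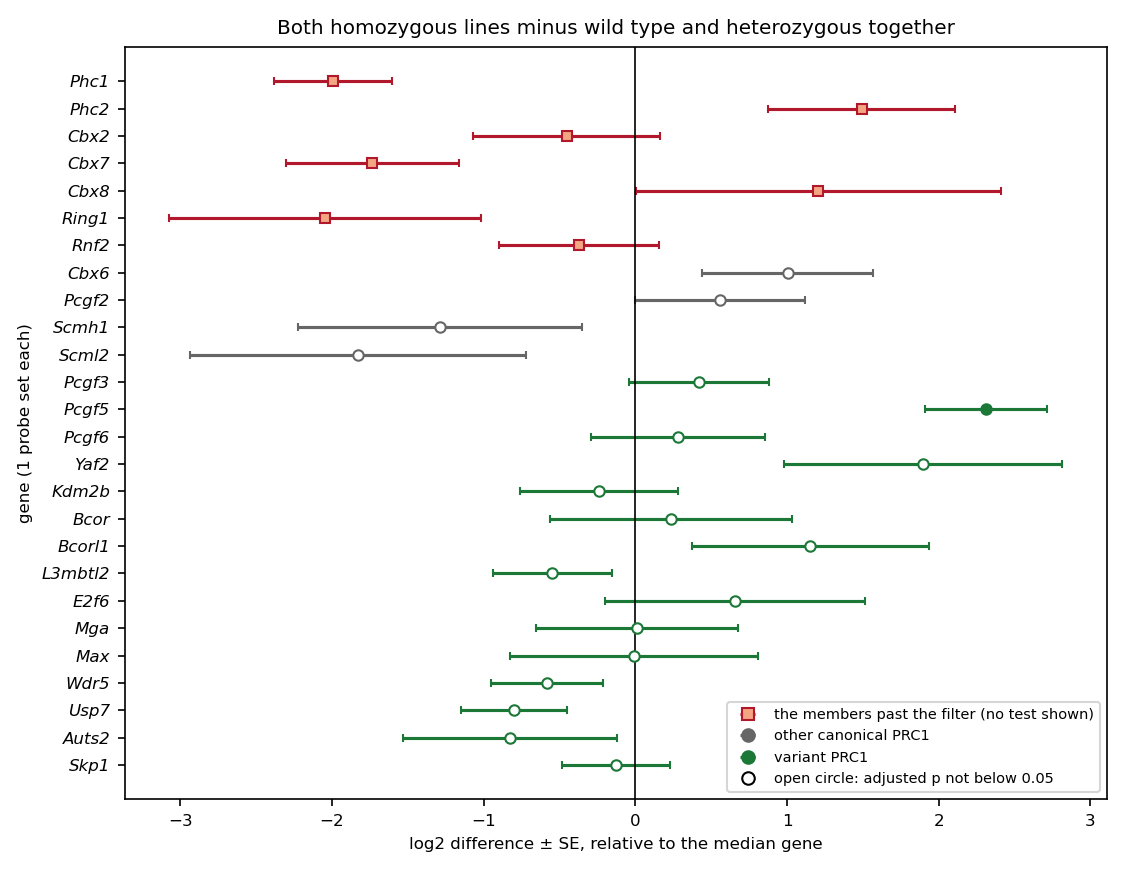
Log2 differences between both homozygous lines and the wild type and heterozygous arrays together, relative to the median gene, with SE bars, for the PRC1 genes past the filter (squares, no test shown), other canonical subunits and variant subunits (circles, filled where the limma adjusted p was below 0.05). Pcgf5 at 2.31 is the one filled circle, and Phc1 at -1.99 lies on the other side.

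PRC2, whose mark the CBX proteins read, had 11 genes past the filter. Compared with wild type and heterozygous together, Rbbp7, a histone-binding subunit shared with other complexes, rose (1.55 ± 0.34, adjusted p = 0.0248) and Jarid2, an accessory subunit, fell (-1.53 ± 0.38, adjusted p = 0.0347) in the limma fit, and 9 were not called. These are 2 of 11 genes, where 1.26% of all tested genes were called, and 7 of 11 had an unadjusted p below 0.05, where 10.1% of all genes did. Rbbp7 read 126 and 101 in ko1 and ko2, against 47.4 in heterozygous and 50.2 in wild type cells, and Jarid2 read 16.7 and 11.8, against 39.1 in heterozygous and 73.4 in wild type. As deposited both calls ended (limma adjusted p = 0.601 and 0.146), with differences of 1.53 and -1.55 relative to the median gene. Those p-values test the differences before that subtraction, and the median gene stood at -0.33 there. The calls ended likewise with probe sets averaged and without the intensity trend. Without ko1 the differences were 1.42 and -1.75, and without ko2 they were 1.57 and -1.43. The core genes Eed, Ezh2 and Suz12 stood at -1.39 ± 0.59, -0.41 ± 0.56 and 0.10 ± 0.67 against wild type, none of them called. Eed, which binds the methyl mark, read 10.5 and 6.76 in ko1 and ko2, against 14.5 in heterozygous and 40.1 in wild type cells, above background on all 4 arrays.

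Genes that PRC1 is known to keep silent in ES cells were read from 2 lists. Of the Hox genes with Cdkn2a and Cdkn2b, 35 were on the array and 21 past the filter. None was called by limma in any of the 4 comparisons (0 at an unadjusted p below 0.05), and the median against wild type was 0.23. The largest fitted differences in this list were those of Hoxd13, Hoxa9 and Hoxa7 at -2.06 ± 1.32, -1.58 ± 1.05 and 1.39 ± 1.57. Hoxd13 and Hoxa7 were above background on 1 array each, so their values rest on unmeasured levels, and the bound for Hoxd13 was at least 1.06-fold lower. Hoxa9 was above background on 3 arrays, at 11.0 in ko1, 8.53 in heterozygous and 22.7 in wild type, and read 1.19 in ko2. Of the 21 genes, 2 were above background on all 4 arrays and 3 on none. Cdkn2a, a cell cycle inhibitor and a classic Polycomb target, read 3.71 and 5.57 in ko1 and ko2, against 0.448 in heterozygous and 3.95 in wild type cells, above background in ko2 alone. Of other developmental regulators 19 were past the filter of 34 on the array, and in homozygous cells against wild type and heterozygous together 4 rose and 0 fell in the limma fit, where 0.925% of all genes were called higher. They were the endoderm factors Gata4 (8.07-fold, adjusted p = 0.000231), Sox17 (at least 7.10-fold, adjusted p = 0.000169), Gata6 (at least 4.33-fold, adjusted p = 0.00664) and Foxa2 (at least 3.38-fold, adjusted p = 0.0385). These 4 are also endoderm markers, and their rise in these data was known when the list was drawn up. Without ko1 no call held (adjusted p between 0.0974 and 0.664), with differences of 2.63 for Gata4, 4.59 for Sox17, 2.90 for Gata6 and 1.99 for Foxa2, against 3.01, 4.70, 2.94 and 2.94 with it, and without ko2 those of Gata6 and Sox17 ended (0.133 and 0.0604). As deposited, those of Gata6 and Foxa2 ended (0.0571 and 0.112), without the trend all 4 did, and with probe sets averaged all but that of Sox17.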

How the data were processed

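Total RNA (8 microgram per culture) of 2 homozygous, 1 heterozygous and 1 wild type ES cell culture was hybridised to 1 array each, per the labels' protocols. The authors deposited 1 linear signal intensity for each probe set, computed by MAS5, according to the submitters' processing notes; the sources used here give no version, scaling target or detection calls. The number of arrays limits the precision.

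Gene symbols came from the platform annotation: 34958 probe sets had 1 symbol, 932 several and 9211 none, and the last 2 kinds were left out of gene counts. A gene was represented by its probe set of highest mean signal. Genes with a mean signal above 2.55 (13730) were tested; the same filter left 27022 probe sets for the probe set fit. Signals were scaled to a common median over the tested genes and analysed as log2(signal + 0.675), the pseudocount being the 20th percentile of all values; fold changes understate dim genes. Adjusted p-values are Benjamini-Hochberg values of limma 3.58.1 in R 4.3.3 (lmFit, eBayes with an intensity trend) for the fitted differences, before subtraction of the median gene, at a threshold of 0.05. The fit by genotype has 1 residual degree of freedom and the fit of 2 groups has 2. The latter pools the wild type and heterozygous arrays as 1 group. "At least" folds set a dim array at its background, without the pseudocount and relative to the median gene. They compare group means, so they need not hold for each homozygous array. Figures were drawn with matplotlib 3.10.9. The fit by genotype was run on simulated data in which every array had the spread of the homozygous pair. That run cannot check whether the single heterozygous and wild type arrays vary in this way.

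The members and lists were chosen with earlier results of these data known. For the gene lists other than the markers, every called gene was named, or the 3 of largest difference where none was called. The 4 genes nearest to Phc1 and to Cbx7 were named too. Cdkn2a, Pcgf2, Skp1, Wdr5, Usp7, L3mbtl2, Kdm2b, Eed, Ezh2 and Suz12 were named in addition, after their values were seen. Alternatives were other scalings, pseudocounts, filters and summaries of probe sets, no intensity trend and leaving out each homozygous array.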

Additional observations from a re-analysis of the deposited data

How the results depend on the processing

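The counts of genes called depended on the settings. Homozygous minus wild type gave 27 calls (26 higher, 1 lower), but 140 as deposited (55 higher, 85 lower), 7 scaled on genes above background on all arrays, 7 with probe sets averaged, and 0 without the intensity trend. Homozygous minus heterozygous gave 29, but 104 as deposited, 45 after quantile normalization, 9 scaled on genes above background, 45 with the pseudocount at the 40th percentile, 7 with probe sets averaged and 0 without the trend. Heterozygous minus wild type gave 0, and 2 as deposited. Homozygous against the other arrays together gave 173, but 90 as deposited, 21 with probe sets averaged, 0 without the trend, and between 35 (without ko1) and 165 (without ko2). Among PRC1 members, homozygous minus wild type gave 0 calls, but 2 as deposited and 1 (Phc1) with the pseudocount at the 40th percentile. The comparison with the other arrays together gave 1, but 0 with probe sets averaged, 0 without the trend, and 0 to 2 without 1 homozygous array. The 1 called probe set of homozygous minus wild type became 0 scaled on genes above background, 0 without the filter and 0 without the trend, and that of the comparison with both other arrays 0 without the trend.

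Over the alternatives, Phc1 in homozygous minus wild type ranged between -2.71 and -2.36 and Cbx7 between -3.36 and -0.29. Uncalled differences changed sign with probe sets averaged for Rnf2 (0.69 between homozygous and wild type, 0.13 between homozygous and heterozygous, 0.55 for heterozygous minus wild type, 0.38 for homozygous against both together), Phc2 (0.19) and Cbx2 (-0.049), the last 2 for heterozygous minus wild type. Rnf2 for heterozygous minus wild type also did so after quantile normalization (0.051). For homozygous minus wild type, Cbx2 turned to 0.19 without ko2 and Cbx8 to -0.27 without ko1. For homozygous against both together, Cbx2 ranged between -1.07 without ko1 and 0.052 without ko2, and Cbx8 between -0.10 without ko1 and 2.40 without ko2. The causes were not tested. In the fit by genotype, leaving out a homozygous array leaves no residual degree of freedom, so it gave values only. No paired analysis was possible because only the homozygous group has 2 replicates. Signal over background limits most PRC1 probe sets.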
